A study of Mus musculus with 10 samples.

Results

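The comparison set pro-B cells with the genotype Pax5(R31Q/-), a hypomorph in which the only functional allele codes for a mutant Pax5 protein, against Pax5(+/+) pro-B cells, 2 RNA-seq libraries a side. Levels are in TPM, reads per length of a gene scaled to a fixed sum over the library. Every gene at 1 TPM or more in at least 1 of these 4 libraries was a member, which took in 12867 of the 25579 genes in the files and left 12712 below that level. The question was which pathways and gene families moved together, also where no member changed by more than 3-fold.

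Pax5 is a transcription factor that binds DNA through its paired domain and commits lymphoid progenitors to the B cell lineage. It activates genes of the B cell programme, among them surface receptors, signal transducers and other transcription factors, and it represses genes that belong to other blood lineages. Pro-B cells are the earliest committed stage, at which the immunoglobulin heavy-chain locus is rearranged by V(D)J recombination and growth depends on interleukin-7. The pre-B cell receptor, made of a new heavy chain, surrogate light chains and the Cd79 signalling pair, then selects cells for expansion.

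Pax5(R31Q/-) mice carry on 1 allele a codon change, made with CRISPR/Cas9 in zygotes, that replaces an arginine of the paired domain by glutamine, and a null allele on the other chromosome. Pax5(+/+) mice carry 2 wild-type alleles. The other 2 genotypes with RNA-seq libraries were Pax5(+/-), with a wild-type and a null allele, and Pax5(fl/fl) Vav-Cre, in which a Cre recombinase driven by the Vav promoter in blood-forming cells deletes both floxed alleles, so that its progenitors lack functional Pax5. Rag2(-/-) cells, which carry wild-type Pax5, were used for the wild-type list of Pax5 binding peaks only. The labels give all RNA-seq libraries as bone marrow cells of C57BL/6 mice, with polyadenylated RNA. The study sorted pro-B cells without culture on surface markers that included B220+ Kit+ CD2- IgM- IgD-. The age of the mice and the number of animals behind each library are not given in the sources used here.

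Between 29916566 and 34488454 reads fell on genes in the 4 compared libraries, and the 10 highest genes took 4.88% to 5.70% of their TPM. Values below are in TPM and are given as replicates 1 and 2 of Pax5(+/+) against replicates 1 and 2 of Pax5(R31Q/-). Log2 differences are Pax5(R31Q/-) minus Pax5(+/+) on log2(TPM + 1), with the standard error (SE) of a limma fit over all 8 RNA-seq libraries, and a gene was called at a Benjamini-Hochberg adjusted p below 0.05. The added 1 understates the change of genes near or below 1 TPM. Nothing in the labels says that replicates came from separate mice, so p-values measure only the spread between these samples, which may be technical. In bulk RNA, fewer cells of a type and less RNA per cell cannot be told apart.

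The Pax5 transcript itself was at 418 and 444 against 306 and 293 (log2 difference -0.52 ± 0.11 SE, limma adjusted p = 0.0434), and at 272 and 287 TPM in Pax5(+/-). TPM per gene does not separate the mutant transcript from that of the null allele. The gate genes Ptprc, Kit and Cd2 were not called. Ptprc, which encodes B220, had a mean of 100.9 ± 1.26 against 129.6 ± 5.37 TPM (SD, n = 2 each). Kit, the stem cell factor receptor, was at 62.8 and 54.7 against 84.2 and 96.7 and Cd2 at 4.77 and 2.61 against 1.38 and 0.899 TPM, so that Kit was above and Cd2 below both Pax5(+/+) libraries.

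All 12 pro-B markers, among them Ebf1, Rag1, Dntt and Vpreb1, were at or above 1 TPM in each of the 4 libraries, with summed levels of 16044 and 18799 TPM in Pax5(+/+) and 14822 and 15250 TPM in Pax5(R31Q/-). Of markers of other cells, the summed level of granulocyte and macrophage genes was 615 and 397 against 993 and 945 TPM, that of T cell genes 6.46 and 2.49 against 2.39 and 1.63 TPM, of erythroid genes 27.4 and 18.2 against 19.5 and 16.9 TPM, of natural killer cell genes 23.2 and 24.4 against 22.7 and 14.1 TPM, of dendritic cell genes 13.9 and 4.34 against 1.80 and 2.28 TPM and of plasma cell genes 33.7 and 30.0 against 47.4 and 41.0 TPM. Granulocyte and macrophage markers, all 7 of which were at or above 1 TPM in each library, were thus higher in both Pax5(R31Q/-) libraries, and dendritic cell markers lower. The granulocyte and macrophage sum was also 661 and 1525 TPM in Pax5(+/-) and 2065 and 316 TPM in Pax5(fl/fl) Vav-Cre. It thus varied widely between libraries of the same genotype. Markers of pre-B and later cells summed to 86.8 and 96.4 against 79.7 and 53.2 TPM, a list that includes Cd22 and Ms4a1, both called lower below. The T cell markers Cd3d and Cd3e were at 0 in replicate 1 of Pax5(+/+), and 0 or 1 of 6 T cell markers reached 1 TPM in any of the 4 libraries. Xist and Y-linked genes were present in all 4 libraries.

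Of the 12867 genes, 342 (2.66%) fell in the mutant, 218 (1.69%) rose, and 560 (4.35%) were called in either direction. Most calls lay within 3-fold, a limit that here and below is set on TPM + 1. 253 genes (1.97%) fell and 171 (1.33%) rose by at most 3-fold, while 89 (0.692%) fell and 47 (0.365%) rose by more. By the ratio of mean TPM, without the added 1, 47 of the 253 fell and 36 of the 171 rose by more than 3-fold, 8 and 3 others had 1 genotype listed at 0, and with 0.1 added in place of 1, 173 of 311 lower and 135 of 214 higher calls lay within it. Without asking for a call, both Pax5(R31Q/-) libraries lay below both Pax5(+/+) libraries for 3248 genes (25.2%) and above them for 4524 (35.2%), and the median log2 difference over all genes was 0.05. By the reads recovered from TPM, 13 of the 560 calls rested on fewer than 10 reads in each of the 4 libraries, 12 of them short miRNA or snoRNA genes such as Mir146 and Mir32, for which a few reads make 1 TPM. The lists below are read against these shares.

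Leaving out libraries moved the number of calls. Without replicate 1 of Pax5(+/+), 429 genes were called lower and 186 higher. Without replicate 2 of Pax5(+/+) these counts were 118 and 64, without replicate 1 of Pax5(R31Q/-) 68 and 31, and without replicate 2 of Pax5(R31Q/-) 60 and 34. Within 3-fold the counts without each Pax5(R31Q/-) library were 13 and 7 lower and 7 and 8 higher. With only the 2 compared genotypes in the fit, 312 genes were lower and 265 higher, and 267 and 181 of the main calls stayed. Among the genes described here, Pax5, Bach2, Ms4a1, H2-Oa, Maml1, Tnfrsf13c, Unc93b1, Itpr3, Cnr2, Itgal, Ptk2b, Cldn10, Myl12b, E2f2, Srebf1, Gsto1, Oas2, Mir146, Mir32 and Plcg2 were then no longer called. A 2-against-2 exact permutation test of a single gene cannot go below p = 0.333, so each call uses the spread that limma shares across genes and genotypes.

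**Figure D1:**
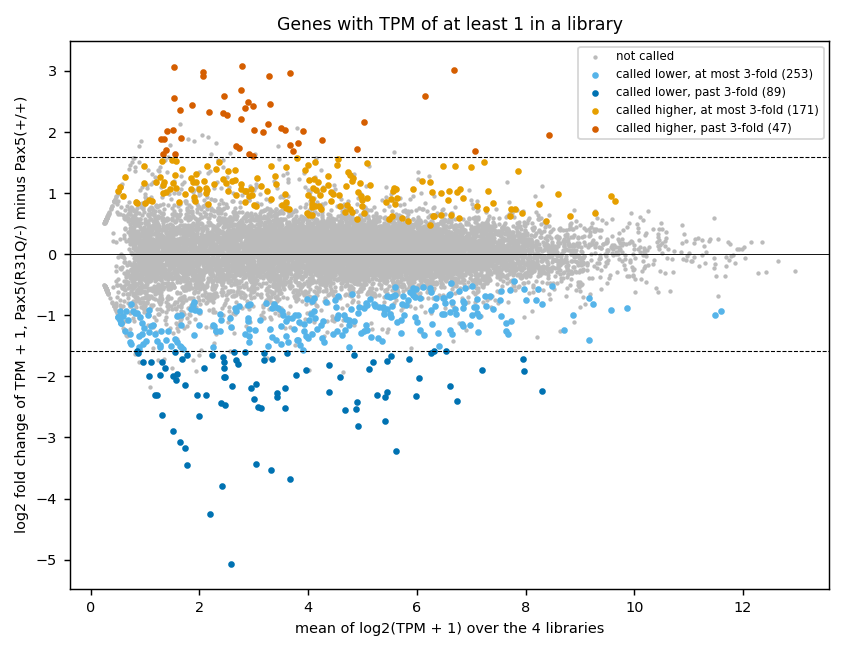
Log2 difference between Pax5(R31Q/-) and Pax5(+/+) (y axis) against the mean log2(TPM + 1) of the 4 libraries (x axis), 1 point per gene with at least 1 TPM in a library. Colored points are the 342 genes called lower and the 218 called higher, and the dashed lines at 3-fold of TPM + 1 leave 253 and 171 of them inside.

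The 2 sizes of fall differed in level. The 89 genes that fell past 3-fold went from a median of 17.9 TPM to 2.59 TPM, and the 253 that fell by at most 3-fold from 32.4 to 15.3 TPM, with log2 differences from -0.43 to -1.57. Genes that rose by at most 3-fold went from a median of 11.3 to 23.3 TPM, whereas those that rose past 3-fold started low, at a median of 2.46 TPM, and reached 15.3 TPM. Among the 253 lower and 171 higher genes within 3-fold were 5 and 6 immunoglobulin gene segments, whose levels depend on which segments the cells of a library had rearranged.

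The parts of the pre-B cell receptor came first. Of 6 measured genes, 1 was called lower and 0 higher, and 5 of 6 lay below both Pax5(+/+) libraries, with a median log2 difference of -0.36. The called gene was Vpreb3, a chaperone-like partner of the surrogate light chain, at 4186 and 4361 against 2234 and 2240.2 TPM (log2 difference -0.93 ± 0.12 SE, limma adjusted p = 0.00723). Vpreb1 and Igll1, the surrogate light chain genes, were at 3097 and 3479 against 2386 and 2746 and at 3417 and 3970.5 against 2722 and 3017 TPM, and Cd79a, a signalling subunit, at 2965 and 4786 against 2405 and 2289.9 TPM. These 3 were uncalled, and their Pax5(R31Q/-) libraries were all below their Pax5(+/+) libraries. Vpreb2, nearly identical to Vpreb1 and so uncertain in a count of short reads, was at 677 and 736 against 691 and 717 TPM with overlapping genotypes.

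Signal transduction behind the receptor held falls within and past 3-fold. Of 44 B cell receptor signalling genes, 7 were called lower and 1 higher, and 22 lay below and 8 above both Pax5(+/+) libraries. Lyn, the Src-family kinase that starts and restrains the signal, went from 124 and 118 to 82.5 and 70.2 TPM (log2 difference -0.66 ± 0.12 SE, limma adjusted p = 0.0229). Themis2, an adaptor that binds Lyn and Plcg2, was at 118 and 143 against 77.4 and 73.1 TPM (log2 difference -0.78 ± 0.12 SE, limma adjusted p = 0.0142). Pik3ap1, an adaptor that recruits PI3K, fell from 471 and 497 to 143 and 115 TPM (log2 difference -1.91 ± 0.15 SE, limma adjusted p = 0.0011).

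Plcg2, the phospholipase that makes the calcium signal, was the only member called higher, at 278 and 273 against 409 and 393 TPM (log2 difference 0.54 ± 0.11 SE, limma adjusted p = 0.034). Sh3bp5, which binds Btk, fell from 127 and 148 to 46.4 and 43.5 TPM and Rasgrp3, which loads Ras in B cells, from 8.22 and 10.1 to 1.82 and 2.19 TPM. Pik3ap1 had the lowest log2 difference of the list with 1 added to TPM, and Rasgrp3, at -2.14, lay below the -1.92 of Pik3ap1 with 0.1 added. The kinase Syk, at 573 and 468 against 571 and 436, overlapped between the genotypes, and the kinase Btk, at 146 and 129 against 126 and 122, and the adaptor Blnk, at 1140.2 and 1439 against 982 and 949 TPM, were below both Pax5(+/+) libraries without being called. The pathway thus held falls, a rise and members that could not be separated from the spread.

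Inhibitory receptors of B cells set the threshold of that signal. 3 of 14 were called lower and 0 higher, with a list median of -0.35. Cd22, a sialic acid receptor that recruits phosphatases, was at 53.9 and 59.2 against 34.7 and 25.9 (log2 difference -0.89 ± 0.16 SE, limma adjusted p = 0.0238), and Cd72, a lectin with a similar inhibitory motif, at 255 and 339 against 159 and 113 TPM (log2 difference -1.12 ± 0.24 SE, limma adjusted p = 0.0436). Siglecg, the relative of Cd22, was at 215 and 275 against 44.2 and 46.3 TPM. Fcgr2b, the inhibitory Fc receptor, was at 33.7 and 25.9 against 30.9 and 24.4 TPM and overlapped. Exons of Cd72 overlap those of Tesk1 on the other strand, and the strand used in counting is not given in the sources used here, so the Cd72 values are uncertain. The marker list of pre-B and later cells, summed at 86.8 and 96.4 against 79.7 and 53.2 TPM, includes Cd22 and Ms4a1, themselves called lower. Its sum is therefore no separate measure of such cells. The part of such cells in the differences of these B cell lists was not tested.

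Among transcription factors of the B cell programme, 3 of 40 were called lower and 0 higher. Spib, an Ets factor of B cells and a partner of Spi1, was at 635 and 641 against 296 and 246 (log2 difference -1.24 ± 0.23 SE, limma adjusted p = 0.0279). Bach2, a repressor that holds back plasma cell differentiation, was at 166 and 134 against 79.5 and 48.4 (log2 difference -1.25 ± 0.22 SE, limma adjusted p = 0.0229), with an antisense gene that overlaps its exons, and Klf2, a quiescence and migration factor, at 69.8 and 61.9 against 22.1 and 13.3 TPM (log2 difference -1.87 ± 0.30 SE, limma adjusted p = 0.0164). In all 3, as in every gene called lower, the lower Pax5(+/+) library lay above the higher Pax5(R31Q/-) library.

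The factors that act with Pax5 were not called. Ebf1 was at 454 and 502 against 409.6 and 387, Foxo1 at 201 and 219.8 against 209 and 200.4 and Ikzf1, encoding Ikaros, at 331 and 299.6 against 281 and 238 TPM. Tcf3, which encodes the E2A proteins, was at 1107 and 1462 against 869 and 794 (log2 difference -0.61 ± 0.16 SE, limma adjusted p = 0.0884), and Ikzf3, encoding Aiolos, at 56 and 43.6 against 33.8 and 22.4 TPM (log2 difference -0.82 ± 0.23 SE, limma adjusted p = 0.102). Of these, all but Foxo1 lay below Pax5(+/+) in both Pax5(R31Q/-) libraries. Pou2af1, a B cell coactivator, was at 990.3 and 1003 against 1097 and 1009 TPM and lay slightly above.

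V(D)J recombination genes mostly lay at or above the wild-type level. Of 25, 1 was called lower and 0 higher, while 14 lay above and 4 below both Pax5(+/+) libraries. The called gene was Polm, a polymerase of end joining, at 34.8 and 31.1 against 1.87 and 2.01 TPM. Dntt, the polymerase that adds untemplated bases at the joints, was at 2277 and 2318 against 3394 and 3525 TPM (log2 difference 0.59 ± 0.13 SE, limma adjusted p = 0.0513), just short of the call. Rag1, at 687 and 436 against 754 and 700.5 TPM, was uncalled with both Pax5(R31Q/-) libraries on top, and Rag2, at 128 and 132 against 133 and 131 TPM, overlapped.

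Surface markers of early lymphoid stages moved in both directions. Flt3, the progenitor cytokine receptor, rose from 9.79 and 9.54 to 23.6 and 23.9 (log2 difference 1.21 ± 0.12 SE, limma adjusted p = 0.00257) and Cd93, a marker of immature B cells, from 278 and 272 to 542 and 543 TPM (log2 difference 0.98 ± 0.15 SE, limma adjusted p = 0.0142). Ms4a1, which encodes CD20, fell from 14 and 25.8 to 1.18 and 4.83 TPM (log2 difference -2.49 ± 0.46 SE, limma adjusted p = 0.0261). It was the only call in the Ly6 and Ms4a families of surface proteins, of whose 14 genes 11 lay above and 1 below both Pax5(+/+) libraries, with a median of 0.68. At an unadjusted p below 0.05, 1 of them was lower and 7 higher, and limma-voom called 1 lower and 2 higher. The library medians of the families were 0.65 and 0.67 against 0.01 and -0.01, and their overall median ran from 0.29 to 0.99 over the alternatives. Ly6d, a marker of B-lymphoid progenitors, was at 333 and 403 against 593 and 619 TPM (log2 difference 0.72 ± 0.16 SE, limma adjusted p = 0.0536). Granulocyte and macrophage markers moved the same way, and their part was not tested. In Flt3 and Cd93 the level of Pax5(fl/fl) Vav-Cre was above that of Pax5(R31Q/-), for Flt3 at 385 and 356 TPM. Il7r, the interleukin-7 receptor chain, was at 206 and 204 against 421 and 379 TPM (log2 difference 0.96 ± 0.29 SE, limma adjusted p = 0.124), above wild type in both libraries but uncalled. Among 30 cytokine receptors only Flt3 and Ifngr1, at 78.3 and 60.9 against 128 and 128 TPM (log2 difference 0.88 ± 0.14 SE, limma adjusted p = 0.0149), were called, both higher, and of the 22 downstream Jak, Stat, Socs and Pim genes limma called 0, with 1 lower and 2 higher at an unadjusted p below 0.05 and 0 called by limma-voom on recovered reads.

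Antigen presentation divided by class. MHC class II molecules load peptides for helper T cells, and of their 15 genes 3 were called lower and 0 higher, with 10 below and 1 above both Pax5(+/+) libraries. The list median was -0.44 against 0.05 over all genes, and relative to the Pax5(+/+) mean it was -0.37 and -0.31 in the 2 mutant libraries, against -0.10 and 0.10 in the wild-type libraries themselves. H2-Ob and H2-Oa, the chains of the H2-O chaperone that restrains peptide loading, were at 139 and 177 against 71.6 and 55.2 (log2 difference -1.30 ± 0.16 SE, limma adjusted p = 0.00663) and 46.6 and 71.4 against 30.4 and 27.5 TPM (log2 difference -0.97 ± 0.20 SE, limma adjusted p = 0.0396), the latter sharing exon sequence with a gene on the other strand. H2-Ab1, a chain of the presenting molecule, was at 193 and 205 against 94.7 and 102 TPM (log2 difference -1.01 ± 0.14 SE, limma adjusted p = 0.00806). Cd74, the invariant chain, at 131 and 209 against 49.7 and 75.7, and Ciita, the coactivator of the class II genes, at 4.86 and 2.91 against 1.59 and 1.68 TPM, lay lower without being called. Summed dendritic cell markers, cells that also make class II, were 13.9 and 4.34 against 1.80 and 2.28 TPM, and their part in these differences was not tested.

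MHC class I and peptide loading genes lay on the other side. Of 27, 18 lay above and 2 below both Pax5(+/+) libraries, with a median of 0.28, and 1 was called. This was Nlrc5, the class I counterpart of Ciita, at 32.9 and 29.9 against 60.1 and 54.9 TPM (log2 difference 0.85 ± 0.12 SE, limma adjusted p = 0.0109), with an exon overlap with an antisense gene. Of the interferon response genes, 4 of 54 were called higher and 0 lower, with 29 above and 5 below both Pax5(+/+) libraries and a median of 0.26. Oas2, a sensor of double-stranded RNA, was at 4.14 and 4.54 against 12.6 and 8.24 (log2 difference 1.07 ± 0.22 SE, limma adjusted p = 0.0368), Gbp7, a guanylate-binding protein, at 36.7 and 36.4 against 57.9 and 55.7 (log2 difference 0.62 ± 0.13 SE, limma adjusted p = 0.0367) and Parp12, an antiviral ADP-ribosyltransferase, at 19.2 and 19.4 against 31.5 and 31.7 TPM (log2 difference 0.69 ± 0.12 SE, limma adjusted p = 0.0211). The median kept its sign in all 15 alternative fits, between 0.19 and 0.31. The library medians of the interferon list were 0.307 and 0.210 in Pax5(R31Q/-) and 0.202 and 0.269 in Pax5(+/-). Those of the class I list were 0.328 and 0.248 in Pax5(R31Q/-) and 0.228 and 0.275 in Pax5(+/-). Neither shift was thus particular to Pax5(R31Q/-). Granulocyte and macrophage markers, summed at 615 and 397 against 993 and 945 TPM, moved with the interferon list, and their part in its median was not tested.

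The Gimap GTPases, a cluster of lymphocyte survival genes, lay higher as a family. 4 of 8 were called higher and 0 lower, 7 lay above both Pax5(+/+) libraries, and the median was 1.03. Gimap9 was at 95.1 and 82.3 against 285 and 227 (log2 difference 1.51 ± 0.18 SE, limma adjusted p = 0.00537), Gimap7 at 15.6 and 15.9 against 40.8 and 42.1 (log2 difference 1.34 ± 0.17 SE, limma adjusted p = 0.00695), Gimap4 at 63.4 and 85.5 against 248 and 232 (log2 difference 1.69 ± 0.32 SE, limma adjusted p = 0.0308) and Gimap3 at 9.98 and 20.7 against 86.4 and 53.9 TPM (log2 difference 2.17 ± 0.35 SE, limma adjusted p = 0.0164). T cells also express these genes strongly, and the summed T cell markers were at 6.46 and 2.49 against 2.39 and 1.63 TPM, a low level whose part in these differences was not tested.

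**Figure D2:**
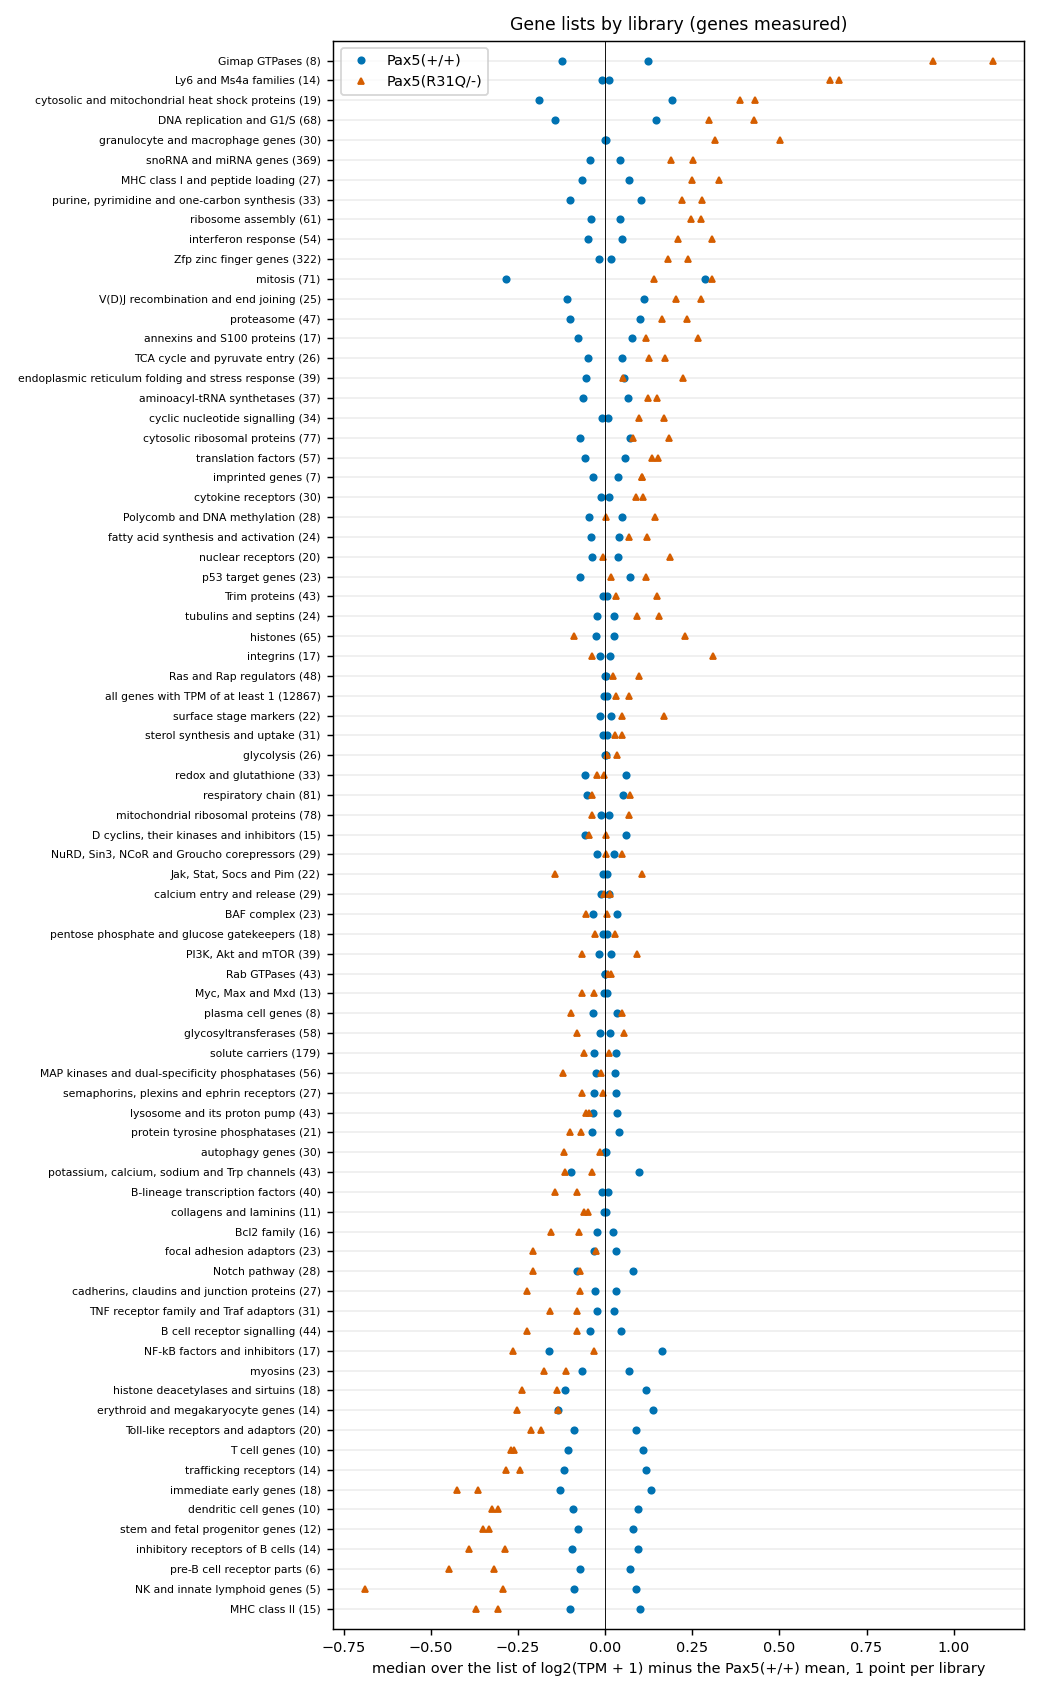
Median over each gene list of the log2(TPM + 1) difference from the Pax5(+/+) mean (x axis), 1 point per library, with the number of genes measured in brackets. The Gimap medians of Pax5(R31Q/-) were 1.11 and 0.94 and its MHC class II medians -0.37 and -0.31, while the medians of all genes lay near 0.

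Notch and PI3K components were called in both directions. Of 28 Notch pathway genes, 3 were called lower and 1 higher. Psen2, a catalytic subunit of the gamma-secretase that releases the Notch intracellular domain, was at 81.9 and 106 against 44.1 and 41.5 (log2 difference -1.10 ± 0.15 SE, limma adjusted p = 0.00785), and Maml1, a coactivator of that domain, at 64.3 and 69.1 against 46.2 and 36.7 TPM (log2 difference -0.68 ± 0.13 SE, limma adjusted p = 0.034). Dtx4, a Deltex ubiquitin ligase, rose from 1.58 and 1.59 to 11.6 and 11.6 TPM (log2 difference 2.28 ± 0.15 SE, limma adjusted p = 0.000515), and Notch1 itself overlapped at 56.8 and 74.7 against 83.8 and 71.9 TPM. Of 39 PI3K, Akt and mTOR genes, 2 were called lower and 1 higher. Mtor, the growth kinase, was at 59.1 and 58.3 against 38.2 and 34.2 (log2 difference -0.69 ± 0.12 SE, limma adjusted p = 0.0233), while Pik3r1, the main regulatory subunit of PI3K, rose from 54.0 and 45.1 to 115 and 111 TPM (log2 difference 1.17 ± 0.13 SE, limma adjusted p = 0.0042).

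Of 31 TNF receptor family and Traf genes, 2 were called lower and 1 higher, and of 20 Toll-like receptors and adaptors, 2 lower and 0 higher. Edaradd, the adaptor of the ectodysplasin receptor, fell from 26.0 and 26.2 to 1.48 and 1.52 TPM (log2 difference -3.44 ± 0.15 SE, limma adjusted p = 0.000237). Tnfrsf13c, the receptor for the B cell survival factor BAFF, was at 100.3 and 159 against 59.2 and 68.4 TPM (log2 difference -0.98 ± 0.21 SE, limma adjusted p = 0.0448), and Unc93b1, the chaperone of the endosomal Toll-like receptors, at 696 and 909 against 467 and 439.8 TPM (log2 difference -0.81 ± 0.17 SE, limma adjusted p = 0.0416). Tlr12 fell from 10.8 and 11 to 4.03 and 3.45 TPM (log2 difference -1.33 ± 0.16 SE, limma adjusted p = 0.005). Tnfrsf10b, a death receptor, rose from 1.20 and 0.583 to 3.59 and 3.58 TPM (log2 difference 1.30 ± 0.21 SE, limma adjusted p = 0.0152). Of 17 NF-kB factors and inhibitors limma called 0 lower and 0 higher, with 3 lower and 0 higher at an unadjusted p below 0.05, and limma-voom called 0 and 0.

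Immediate early genes, which answer receptor signals within minutes, lay mostly lower. 9 of 18 lay below and 4 above both Pax5(+/+) libraries, with a median of -0.29, and 2 were called lower and 1 higher. Egr3 was at 2.94 and 4.69 against 0.735 and 0.898 (log2 difference -1.38 ± 0.23 SE, limma adjusted p = 0.0192), Jund, an AP-1 subunit, at 287 and 334 against 167 and 124 (log2 difference -1.10 ± 0.21 SE, limma adjusted p = 0.0281) and Klf4, a growth-restraining factor, at 7.03 and 5.64 against 12.6 and 12.6 TPM (log2 difference 0.90 ± 0.19 SE, limma adjusted p = 0.044). Egr1, at 22 and 37.6 against 12.5 and 13.2, and Nr4a1, at 10.3 and 14.5 against 5.68 and 6.56 TPM, were lower in both Pax5(R31Q/-) libraries without being called.

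Genes of movement and attachment held falls and rises. S1pr4, a sphingosine phosphate receptor of lymphocytes, was at 167 and 191 against 102 and 93.7 (log2 difference -0.87 ± 0.11 SE, limma adjusted p = 0.00713), and Cnr2, the cannabinoid receptor of B cells, at 3.0 and 4.07 against 1.13 and 1.39 TPM (log2 difference -1.0 ± 0.20 SE, limma adjusted p = 0.0329). S1pr3, another receptor of the family, rose from 0.433 and 0.701 to 8.21 and 6.75 TPM (log2 difference 2.44 ± 0.18 SE, limma adjusted p = 0.000916). Among 23 focal adhesion adaptors, 3 were called lower and 1 higher. Ptk2b, the focal adhesion kinase Pyk2, was at 142 and 157 against 100.3 and 77.0 (log2 difference -0.76 ± 0.14 SE, limma adjusted p = 0.0281), Parvb, which ties integrins to actin, fell from 59.5 and 77.6 to 12.7 and 11.3 (log2 difference -2.41 ± 0.18 SE, limma adjusted p = 0.000916), and Cass4 rose from 17.8 and 15.8 to 45.4 and 30.8 TPM (log2 difference 1.11 ± 0.19 SE, limma adjusted p = 0.0211), whereas its relative Nedd9 fell from 225 and 185 to 45.4 and 44.9 TPM (log2 difference -2.15 ± 0.12 SE, limma adjusted p = 0.000313).

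Ion channels, among which calcium channels shape the signal of the receptor, held 7 calls lower and 3 higher among 43 measured genes, with 19 below and 11 above both Pax5(+/+) libraries. Scn4b, a sodium channel beta subunit, was at 144 and 118 against 58.2 and 47.5 (log2 difference -1.29 ± 0.20 SE, limma adjusted p = 0.0129), Kcnn4, the calcium-activated potassium channel of lymphocytes, at 161 and 207 against 96.5 and 104 (log2 difference -0.86 ± 0.14 SE, limma adjusted p = 0.0149) and Cacna2d1, an auxiliary calcium channel subunit, at 12.4 and 18.1 against 4.55 and 3.87 TPM (log2 difference -1.62 ± 0.21 SE, limma adjusted p = 0.0069). Kcng1, a modifier of potassium channels, rose from 13.7 and 18.8 to 33.8 and 31.2 TPM (log2 difference 0.98 ± 0.19 SE, limma adjusted p = 0.0346). The inositol trisphosphate receptors, which release stored calcium, went in opposite directions, Itpr3 at 68.6 and 77.9 against 49.9 and 49.5 (log2 difference -0.55 ± 0.11 SE, limma adjusted p = 0.0347) and Itpr1 at 23.9 and 23.2 against 48.4 and 42.4 TPM (log2 difference 0.92 ± 0.13 SE, limma adjusted p = 0.0105).

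Motor and guidance genes were called both ways. Of 23 myosin genes, 3 were called lower and 3 higher. Myo7a, an unconventional myosin, was at 120.3 and 166 against 77.3 and 73.1 (log2 difference -0.90 ± 0.17 SE, limma adjusted p = 0.028) and Myl12b, a regulatory light chain, at 336 and 391 against 555 and 567 TPM (log2 difference 0.63 ± 0.13 SE, limma adjusted p = 0.0455). Sema4b, a transmembrane semaphorin, fell from 68.3 and 76.2 to 37.5 and 28.7 TPM (log2 difference -1.11 ± 0.16 SE, limma adjusted p = 0.0101), while Sema3g, a secreted member, rose from 5.89 and 7.08 to 27.9 and 30.4 TPM (log2 difference 2.01 ± 0.16 SE, limma adjusted p = 0.00117). Among integrins, Itgal, the alpha chain of LFA-1, was at 61.0 and 64.9 against 88.2 and 87.4 TPM (log2 difference 0.47 ± 0.10 SE, limma adjusted p = 0.0396).

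Replication and growth machinery lay slightly higher in Pax5(R31Q/-), with almost no calls. Of 68 DNA replication and G1/S genes, 54 lay above and 4 below both Pax5(+/+) libraries, with a median of 0.39, and the only called gene, E2f2, an activating E2F, was lower at 331 and 284 against 202 and 209 TPM (log2 difference -0.58 ± 0.11 SE, limma adjusted p = 0.0311). At an unadjusted p below 0.05, 2 were lower and 36 higher, and limma-voom called 1 lower and 2 higher. The list median relative to the Pax5(+/+) mean was 0.30 and 0.43 for replicates 1 and 2 of Pax5(R31Q/-) against 0.14 and -0.14 for those of Pax5(+/+), so that the nearest libraries of the genotypes were closer together than the 2 Pax5(+/+) libraries were. Mcm5, a subunit of the replicative helicase, was at 454 and 323 against 497 and 527, and Pcna, the polymerase clamp, at 1432 and 1268 against 1586 and 1881 TPM. Mitosis genes overlapped as a list, with medians of 0.31 and 0.14 against 0.28 and -0.28. Limma called 0 of 71 lower and 0 higher, 1 and 2 had an unadjusted p below 0.05, and limma-voom called 0. The mitosis median of 0.21 became -0.07 without replicate 2 of Pax5(+/+).

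Ribosome assembly, nucleotide synthesis and proteasome lists also had medians above that of all genes. Of 61 ribosome assembly genes 47 lay above both Pax5(+/+) libraries and 2 below, with a median of 0.26. Limma called 0 lower and 0 higher, with 0 and 17 at an unadjusted p below 0.05, and limma-voom called 0. Nop56, a core protein of box C/D snoRNPs, was at 170.4 and 154 against 218 and 219 TPM (log2 difference 0.43 ± 0.14 SE, limma adjusted p = 0.16). Here the Pax5(+/+) libraries lay close together, at 0.04 and -0.04, and both Pax5(R31Q/-) libraries above them, at 0.25 and 0.28. For purine, pyrimidine and one-carbon synthesis, 20 of 33 lay above, limma called 0 lower and 0 higher, 0 and 12 had an unadjusted p below 0.05, and limma-voom called 1 higher. The library medians of this list were 0.28 and 0.22 against 0.10 and -0.10, and those of the proteasome 0.16 and 0.23 against 0.10 and -0.10, so that in both lists the Pax5(+/+) libraries lay further apart than the nearest libraries of the genotypes. Of 47 proteasome genes, 28 lay above and 5 below both Pax5(+/+) libraries, with a median of 0.20, limma called 0 lower and 0 higher, 2 and 6 had an unadjusted p below 0.05, and limma-voom called 0.

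Cytosolic ribosomal proteins showed less. Their median was 0.14 over 77 genes, and their library medians were 0.08 and 0.18 against 0.07 and -0.07. Mitochondrial ribosomal proteins, with a median of 0.02 over 78 genes, and respiratory chain genes, with 0.02 over 81, were near the median of all genes. Heat shock proteins had a higher median of 0.42 over 19 genes, with 14 above both Pax5(+/+) libraries. Their library medians were 0.43 and 0.39 against 0.19 and -0.19, with the Pax5(+/+) libraries further apart than the nearest libraries of the genotypes, and the list median ran from 0.16 to 0.71 over the alternatives. Hspa8, the constitutive Hsp70, was at 1022 and 784 against 1590.2 and 1171 TPM (log2 difference 0.61 ± 0.18 SE, limma adjusted p = 0.126), Hsph1 at 69 and 24.9 against 116 and 84.6 TPM with a wide spread between replicates, and only Bag3, a cochaperone, was called, at 0.748 and 1.09 against 3.13 and 2.89 TPM (log2 difference 1.07 ± 0.23 SE, limma adjusted p = 0.044).

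Regulators of cell cycle entry and survival were called singly. Cdk6, a D-cyclin kinase, rose from 86.5 and 68.4 to 219 and 198 TPM (log2 difference 1.42 ± 0.22 SE, limma adjusted p = 0.0146) and Ccnd2, encoding cyclin D2, from 81.3 and 85.1 to 168 and 148 TPM (log2 difference 0.92 ± 0.12 SE, limma adjusted p = 0.00785), whereas Ccnd3, the more abundant cyclin D3, was at 1140.5 and 1347 against 963 and 1084 TPM (log2 difference -0.28 ± 0.13 SE, limma adjusted p = 0.286). The kinase inhibitor Cdkn1c fell from 7.03 and 8.25 to 3.70 and 3.63 TPM (log2 difference -0.89 ± 0.16 SE, limma adjusted p = 0.0264). Bcl2l1, which encodes the survival protein Bcl-xL, fell from 119 and 109 to 55.5 and 47.1 TPM (log2 difference -1.14 ± 0.13 SE, limma adjusted p = 0.0042), and 8 of 16 Bcl2 family genes lay below both Pax5(+/+) libraries. Bcl2 itself was at 3.62 and 3.49 against 2.11 and 2.20 and Mcl1 at 226 and 212 against 263 and 219.9 TPM, both uncalled. Myc, a driver of ribosome and growth genes, was at 113 and 182 against 189.9 and 185 TPM and uncalled.

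**Figure D3:**
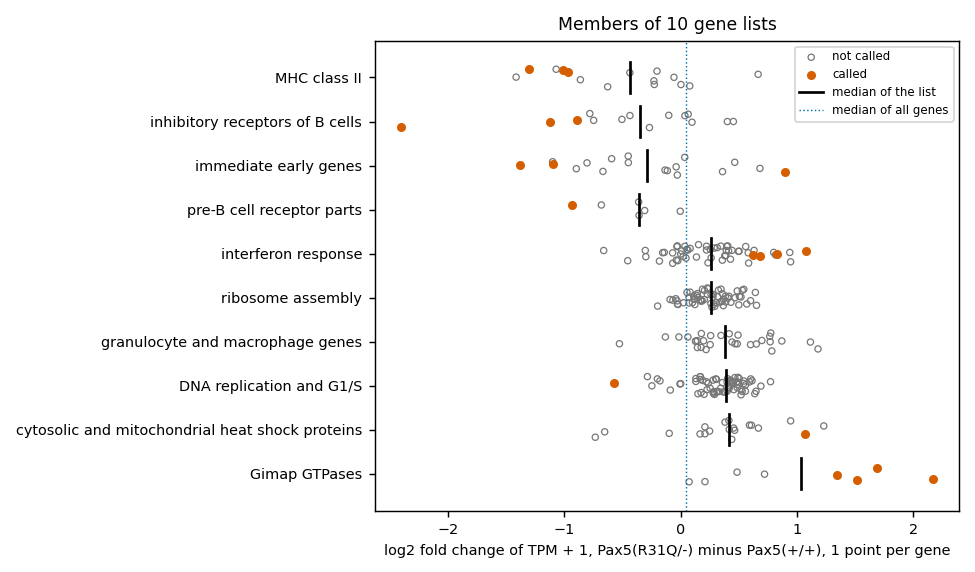
Log2 difference between Pax5(R31Q/-) and Pax5(+/+) for each measured member of 10 lists (x axis, 1 point per gene, called genes filled), with the list median as a bar and the median of all 12867 genes, 0.05, as a dotted line. DNA replication and ribosome assembly members lie mostly above that line with 1 and 0 filled points, and MHC class II members mostly below it with 3.

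Lipid synthesis held falls with no rise among the calls. Of 24 fatty acid synthesis and activation genes, 3 were called lower and 0 higher, although the median of the list was 0.09. Elovl6, which lengthens saturated fatty acids, went from 45.2 and 44.1 to 13.8 and 16.1 TPM (log2 difference -1.52 ± 0.17 SE, limma adjusted p = 0.00433), Scd1, the desaturase that follows it, from 14.8 and 17.8 to 2.51 and 3.42 (log2 difference -2.13 ± 0.26 SE, limma adjusted p = 0.00579) and Acss1, a mitochondrial acetyl-CoA synthetase with an overlapping antisense gene, from 158 and 154 to 88.6 and 81.0 TPM (log2 difference -0.87 ± 0.10 SE, limma adjusted p = 0.00495). Srebf1, a transcription factor of lipid synthesis, was at 82.2 and 99.6 against 59.7 and 62.5 TPM (log2 difference -0.56 ± 0.12 SE, limma adjusted p = 0.0474), a call that lay close to the threshold, and its exons overlap those of Rai1 on the other strand.

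Carbon and redox metabolism followed with scattered calls. Pfkp, the platelet-type phosphofructokinase overlapped by Pitrm1 on the other strand and the only called glycolytic gene of 26, was at 33.9 and 34.6 against 22.3 and 20.4 (log2 difference -0.66 ± 0.12 SE, limma adjusted p = 0.0279), and Pdk2, a kinase that holds back pyruvate dehydrogenase, at 41.7 and 58.1 against 22.7 and 20.4 TPM (log2 difference -1.16 ± 0.22 SE, limma adjusted p = 0.0323). Of 179 solute carriers, 6 were called lower and 5 higher. Slc1a5, the glutamine carrier, fell from 422 and 476 to 138 and 133 TPM (log2 difference -1.72 ± 0.12 SE, limma adjusted p = 0.000785), and Slc43a1, a carrier of large neutral amino acids, rose from 45.9 and 42.3 to 107 and 99.0 TPM (log2 difference 1.20 ± 0.11 SE, limma adjusted p = 0.00164). The glutathione transferases split, with Mgst2 at 168 and 154 against 54.3 and 51.6 (log2 difference -1.59 ± 0.11 SE, limma adjusted p = 0.000895) and Gstt2 at 146 and 195 against 76.6 and 74.8 (log2 difference -1.15 ± 0.15 SE, limma adjusted p = 0.00806) lower, and Gsto1 at 58.6 and 68.8 against 94.6 and 101 TPM (log2 difference 0.62 ± 0.12 SE, limma adjusted p = 0.0354) higher. Tfeb, the master regulator of lysosome genes, fell from 72.4 and 89.6 to 33.2 and 31.4 TPM (log2 difference -1.29 ± 0.15 SE, limma adjusted p = 0.00433), while among 43 lysosome genes 3, Tfeb included, were called lower and 1 higher.

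Histone deacetylase, BAF complex and corepressor genes held 1 call each, all lower. Bcl7a, a BAF complex subunit, fell from 627 and 745 to 152 and 135 TPM (log2 difference -2.24 ± 0.16 SE, limma adjusted p = 0.000895), Aes, a short relative of the Groucho corepressors, from 589.7 and 746 to 342 and 325 TPM (log2 difference -0.99 ± 0.13 SE, limma adjusted p = 0.00838), each the only call among 23 BAF complex and 29 corepressor genes. Hdac11 was at 40.6 and 48.7 against 2.53 and 2.56 TPM. Zfp zinc finger genes leaned upward, with 179 of 322 above and 43 below both Pax5(+/+) libraries and a median of 0.21, but 1 was called higher and 4 lower.

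Lists of other lineages held 0 to 4 calls each. Of 30 granulocyte and macrophage genes, 18 lay above both Pax5(+/+) libraries and 1 below, with a median of 0.38. The library medians of this list were 0.50 and 0.32 in Pax5(R31Q/-) and 0.45 and 0.95 in Pax5(+/-). Limma called 0 lower and 0 higher, 0 and 2 had an unadjusted p below 0.05, and limma-voom called 0. S100a8, a granulocyte calcium-binding protein, was at 159 and 113 against 305 and 305 and Lyz2, lysozyme, at 104 and 60.1 against 147 and 124 TPM, whereas Cebpa and Mpo, genes of myeloid progenitors, were at 1.58 and 1.13 against 2.29 and 1.0 and 22.4 and 25.2 against 29.0 and 23.3 TPM and overlapped. Csf1r, the macrophage growth factor receptor that Pax5 represses in textbooks, was at 2.43 and 2.29 against 5.22 and 4.36 TPM (log2 difference 0.78 ± 0.30 SE, limma adjusted p = 0.212).

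Of 10 T cell genes, 0 were called lower and 2 higher, while 5 lay below and 4 above both Pax5(+/+) libraries, with a median of -0.27, and limma-voom called 1 lower and 2 higher. The median of this list ran from -0.34 to -0.05 over the alternatives. Lck, the T cell Src kinase, rose from 60.4 and 63.4 to 94.4 and 98.7 TPM (log2 difference 0.63 ± 0.10 SE, limma adjusted p = 0.0131) and Cd247, the CD3 zeta chain, from 1.34 and 1.77 to 5.07 and 4.50 TPM (log2 difference 1.18 ± 0.19 SE, limma adjusted p = 0.0178), the latter with exons that overlap Pou2f1 on the other strand. Of 5 natural killer and innate lymphoid genes 1 was called, Prf1, which encodes perforin, lower at 4.02 and 6.00 against 1.29 and 1.47 TPM (log2 difference -1.32 ± 0.21 SE, limma adjusted p = 0.0172). Of 14 erythroid and megakaryocyte genes 1 was called, Car2, a carbonic anhydrase, higher at 188 and 156 against 286 and 292 TPM. In that list 4 lay below and 2 above both Pax5(+/+) libraries, with a median of -0.21. Of 10 dendritic cell genes 1 was called, Flt3, higher, while 5 lay below and 2 above both Pax5(+/+) libraries. The dendritic median was -0.32, and limma-voom called 2 lower and 1 higher. Of 12 stem and fetal progenitor genes, 3 were called lower and 1, Flt3, higher, with Hoxa9 at 5.41 and 9.26 against 1.67 and 2.00 (log2 difference -1.52 ± 0.27 SE, limma adjusted p = 0.0228), Meis1, its partner, at 16.1 and 19.5 against 7.49 and 8.64 (log2 difference -1.05 ± 0.18 SE, limma adjusted p = 0.0225) and Arid3a, a fetal B lymphoid factor, at 36.0 and 33.7 against 17.4 and 16.5 TPM (log2 difference -1.0 ± 0.14 SE, limma adjusted p = 0.00956).

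The largest falls within 3-fold of TPM + 1 lay mostly outside these pathways. Bcat1, which starts the breakdown of branched-chain amino acids, led at 25.4 and 24.2 against 8.35 and 7.09 TPM (log2 difference -1.57 ± 0.16 SE, limma adjusted p = 0.00274). Mgll, a monoacylglycerol lipase, was at 10.8 and 11.9 against 4.34 and 2.89 and Crat, a carnitine transferase that shares exon sequence with Dolpp1, at 16.1 and 19.9 against 6.01 and 5.57 TPM. Hlx, a homeobox factor of blood cells, was at 19.6 and 24.4 against 7.89 and 7.32, Ajuba, a LIM-domain scaffold of cell junctions, at 17.3 and 21.6 against 6.43 and 6.60 and Ust, a sulfotransferase of glycosaminoglycans, at 17.0 and 15.5 against 5.63 and 5.40 TPM. Chchd10, a mitochondrial protein at 742 and 1179 against 356 and 349 TPM with an overlapping gene on the other strand, was the most abundant of the 12. Tmc6, at 124 and 164 against 49.0 and 49.8 and overlapped by Tmc8, Smim3, at 25.2 and 21.3 against 7.77 and 7.51, and Gstp2, at 61.6 and 70.6 against 24.5 and 23.6 TPM and with a near-identical copy, completed the set with Elovl6 and Hoxa9. By the ratio of mean TPM, Bcat1, Mgll, Crat, Smim3 and Hoxa9 fell by more than 3-fold.

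Among the 12 largest rises within 3-fold of TPM + 1, Sulf2, a sulfatase that edits heparan sulfate, was at 6.59 and 7.54 against 25.0 and 21.1 (log2 difference 1.57 ± 0.23 SE, limma adjusted p = 0.0108), and Ext1, which builds heparan sulfate chains, at 21.4 and 17.3 against 59.5 and 52.7 TPM (log2 difference 1.49 ± 0.20 SE, limma adjusted p = 0.00838). Thrb, a thyroid hormone receptor, was at 8.58 and 10.3 against 29.2 and 27.9 and Epas1, a hypoxia-inducible factor, at 2.11 and 1.97 against 8.36 and 6.92 TPM. Trio, a guanine nucleotide exchange factor, was at 12 and 14.1 against 42.2 and 33.6, Pde8a, which degrades cyclic AMP, at 4.54 and 5.61 against 15.2 and 15.7, and the receptors Adgrg3 and Cmklr1 at 52.8 and 73.7 against 171 and 173 and 1.93 and 1.41 against 6.39 and 6.07 TPM. Rgcc, at 59.0 and 48.0 against 161 and 135, Tmem119, at 6.74 and 11 against 25.1 and 26.1, and Ypel2, at 14.1 and 11.2 against 42.5 and 36.0 TPM, completed the set with Gimap9. By the ratio of mean TPM, Sulf2, Thrb, Epas1, Pde8a, Cmklr1 and Ypel2 rose by more than 3-fold. In each of these 24 genes, as in every called gene, both Pax5(R31Q/-) libraries lay beyond both Pax5(+/+) libraries, so nothing is read from it.

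**Figure D4:**
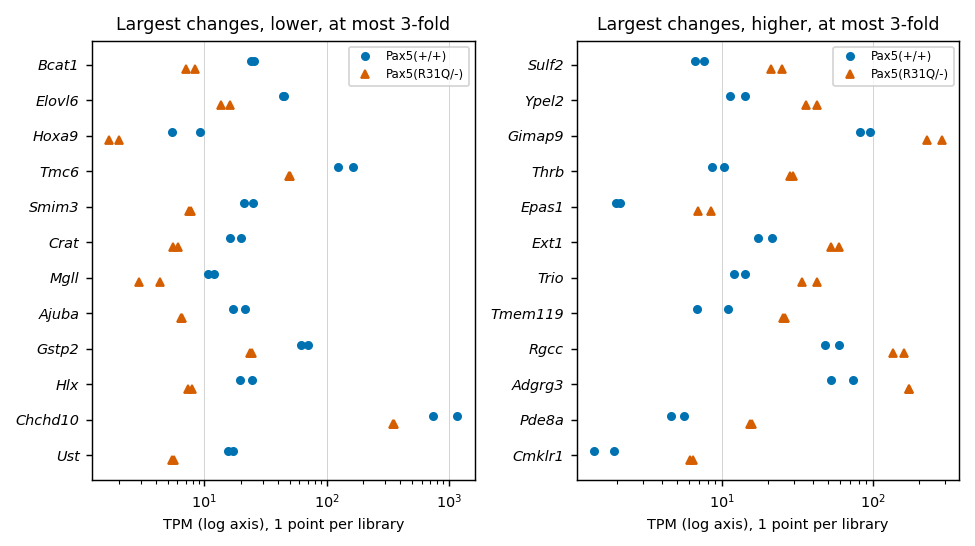
TPM on a log axis in each of the 4 compared libraries for the 12 largest falls (left) and the 12 largest rises (right) within 3-fold of TPM + 1, 1 point per library, circles for Pax5(+/+) and triangles for Pax5(R31Q/-). In all 24 genes, as in every called gene, the pair of triangles lies on 1 side of both circles.

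Setting Pax5(R31Q/-) against Pax5(+/-), which differ in the nature of their only functional allele, gave 83 calls (0.645%) in either direction, and against Pax5(fl/fl) Vav-Cre 4351 calls (33.8%). These contrasts share the Pax5(R31Q/-) libraries with the main comparison, so they are given side by side only. Of the 253 genes that fell within 3-fold, 15 were called lower than in Pax5(+/-), and of the 171 that rose within 3-fold, 11 were called higher. All were chosen on the same Pax5(R31Q/-) libraries, so nothing is read from these counts.

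Against Pax5(fl/fl) Vav-Cre, 82 of the 253 lower genes were called higher in Pax5(R31Q/-) and 46 lower. These counts, and those of the higher genes below, stand beside 33.8% of all genes called in either direction. The genes were chosen on the same Pax5(R31Q/-) libraries, so nothing is read from the counts. Bcl2l1 was at 95.6 and 92.3 TPM in Pax5(+/-) and 17.9 and 16.0 TPM in Pax5(fl/fl) Vav-Cre, so that Pax5(R31Q/-) lay between them, and the same order was seen for Bcat1, at 15.9 and 17.6 and 0.591 and 0.769 TPM. Arid3a had another order, at 36.8 and 31.8 and 47.4 and 56.5 TPM, with Pax5(R31Q/-) below both. Of the 171 higher genes, 66 were called lower in Pax5(R31Q/-) than in Pax5(fl/fl) Vav-Cre and 45 higher. Dtx4, at 4.21 and 4.49 and 67.9 and 79.0 TPM, and Flt3, at 18.8 and 21.6 and 385 and 356 TPM, lay between those genotypes, whereas Epas1, at 2.72 and 2.18 and 2.66 and 3.56 TPM, was highest in Pax5(R31Q/-).

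Pax5 binding was read from 1 peak list per genotype, made by chromatin immunoprecipitation from cultured pro-B cells, with 41983 peaks in Rag2(-/-) cells that carry wild-type Pax5 and 18821 in Pax5(R31Q/-) cells, whose description names the R31Q allele under Rag2. Since each list is 1 sample, no test between them was possible. A wild-type peak within 1 kb of an annotated start lay at 173 of 247 genes (70.0%) that fell within 3-fold and at 49 of 86 (57.0%) that fell further. Of these start peaks, 20 of 173 (11.6%) had no overlapping Pax5(R31Q/-) peak within 3-fold and 18 of 49 (36.7%) past it. For uncalled genes above 5 TPM the values were 7539 of 9590 (78.6%) and 222 of 7539 (2.94%). Genes that rose within 3-fold had start peaks at 87 of 161 (54.0%), of which 4 (4.60%) were lost, and those that rose further at 13, of which 3 (23.1%) were lost. With starts taken at 0.2 kb, the shares lost within 3-fold were 8 of 143 (5.59%) for falls and 4 of 77 (5.19%) for rises, and past 3-fold 13 of 39 (33.3%) for falls. With 2.5 kb they were 29 of 192 (15.1%) for falls and 4 of 95 (4.21%) for rises within 3-fold.

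**Figure D5:**
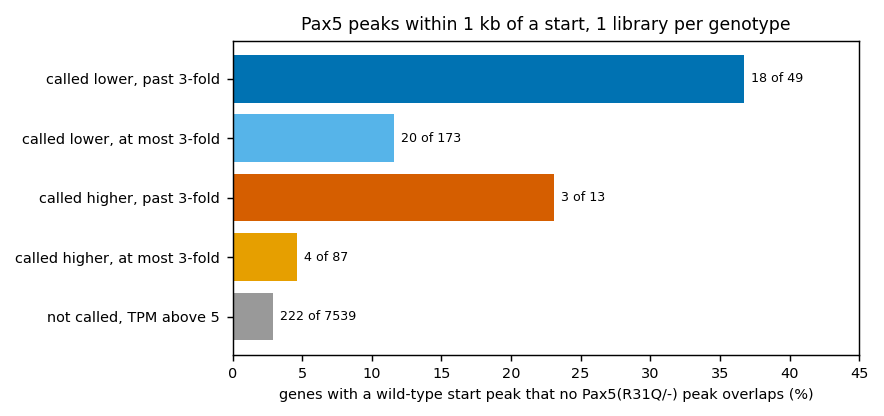
Percent of genes with a wild-type Pax5 peak within 1 kb of a start whose peak no Pax5(R31Q/-) peak overlaps (x axis), by class of call, from 1 peak list per genotype. The share was 36.7% for genes that fell past 3-fold, 11.6% within 3-fold, 23.1% (3 of 13 genes) and 4.60% for genes that rose past and within 3-fold, and 2.94% for uncalled genes above 5 TPM.

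Genes named above fell into each class. Lyn, Cd22, Cd72, Bach2, Spib, Bcl2l1, Mtor, Elovl6, Tfeb and Bcat1 had a start peak in both lists, and Vpreb3, H2-Ab1, H2-Oa and Chchd10 had none in the wild-type list. H2-Ob and, past 3-fold, Scd1 had a wild-type start peak with no Pax5(R31Q/-) counterpart. The lists hold no peak heights, so a kept peak may still differ in height.

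Sequences are printed for genes that fell within 3-fold of TPM + 1 and whose start peak was present only in the wild-type list. The first pair are promoters of RefSeq starts (250 bases before and 50 after, GRCm38.p6, strand of the gene, 5′ to 3′), of Cldn10, a claudin of tight junctions at 2.63 and 1.39 against 0.298 and 0.0508 TPM (log2 difference -1.34 ± 0.24 SE, limma adjusted p = 0.0258), which fell by more than 3-fold by the ratio of mean TPM, at chr14:118787621-118787920 on the plus strand, and of Pcp4l1, a small calmodulin-binding protein at 195 and 242 against 96.5 and 82.9 TPM (log2 difference -1.27 ± 0.18 SE, limma adjusted p = 0.0103), at chr1:171196219-171196518 on the minus strand. Capitals mark the bases inside the wild-type peak.
Cldn10: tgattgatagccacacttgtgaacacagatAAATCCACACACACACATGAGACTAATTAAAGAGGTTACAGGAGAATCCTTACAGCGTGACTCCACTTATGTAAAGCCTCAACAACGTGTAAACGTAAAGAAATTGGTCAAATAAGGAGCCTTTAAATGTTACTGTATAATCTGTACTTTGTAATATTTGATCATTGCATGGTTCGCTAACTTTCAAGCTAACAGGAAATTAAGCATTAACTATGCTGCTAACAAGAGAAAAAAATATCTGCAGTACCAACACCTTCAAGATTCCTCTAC
Pcp4l1: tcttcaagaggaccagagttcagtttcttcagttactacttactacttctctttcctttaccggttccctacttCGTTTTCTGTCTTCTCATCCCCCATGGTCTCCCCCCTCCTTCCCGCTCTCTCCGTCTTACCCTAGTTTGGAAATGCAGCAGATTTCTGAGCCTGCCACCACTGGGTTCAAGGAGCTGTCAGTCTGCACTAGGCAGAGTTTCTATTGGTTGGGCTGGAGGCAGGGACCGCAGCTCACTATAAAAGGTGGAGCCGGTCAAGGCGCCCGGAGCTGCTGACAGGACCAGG
The letters GCGTGAC, part of the consensus that Pax5 binds and searched on both strands, were found 1 time in the Cldn10 promoter and 0 times in that of Pcp4l1, against 687 of 32851 RefSeq promoters of this length (2.09%). With any base at the third position, GCNTGAC was in 3518 of them (10.7%) and includes the former motif. No match says only that these letters are not in the window.

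The next sequence is the wild-type peak near the start of Gstp2 at chr19:4041025-4041316 on the minus strand, the whole peak of 292 bases with its midpoint 1051 bases from the start. It was chosen after the values were seen. Capitals mark GCNTGAC or its reverse complement, present 1 time in this peak.
Gstp2: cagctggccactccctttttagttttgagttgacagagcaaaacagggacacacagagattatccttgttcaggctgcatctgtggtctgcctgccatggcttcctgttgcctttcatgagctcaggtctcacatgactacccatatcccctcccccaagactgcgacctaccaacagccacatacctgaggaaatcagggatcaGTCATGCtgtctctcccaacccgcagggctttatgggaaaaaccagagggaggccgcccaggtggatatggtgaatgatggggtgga

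The Pax5 locus lies on chromosome 4, and the genotypes compared differ there by construction. Of 107 measured genes within 10 Mb of Pax5, itself left out, 3 were called lower and 2 higher (4.67%), against 4.32% of 12377 genes with a RefSeq position. Within 5 Mb the share was 5.49% of 91 genes and within 20 Mb 9.04% of 166.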

How the data were processed

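Polyadenylated RNA of sorted pro-B cells was sequenced in 2 libraries for each of 4 genotypes. The authors filtered ribosomal reads, aligned the rest to mm10, counted uniquely mapping reads on RefSeq genes and deposited them as TPM. The submitters' processing notes name STAR 2.4.2, Bowtie2 2.3.5.1, SAMtools 1.9, Picard 2.18.27 and MACS. Reads per gene were recovered from the steps between low TPM values, which came out whole for all 18206 genes above 0 in at least 2 libraries (tolerance 1e-06 reads or 1e-09 of the value), and gave the depths and a limma-voom alternative.

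Log2(TPM + 1) of genes with at least 1 TPM in a library was fitted with limma 3.58.1 in R 4.3.3 over all 8 RNA-seq libraries, genotype as the only term, with an empirical Bayes trend and Benjamini-Hochberg adjustment over 13436 genes. The script was tested on simulated data. The members and gene lists were chosen with earlier results of these data known, and no set test was run. Named genes were those of the sorting gate, up to 6 called genes of each list with the largest difference, and the 12 largest differences each way within 3-fold and above 5 TPM, immunoglobulin genes left out. Other called members of a list, such as Lyn, Plcg2, Kcnn4, Kcng1 and Slc43a1, and uncalled genes were given as examples chosen after their values were seen. The Pax5 peak lists, 1 library per genotype, were deposited with positions and a score of 0 in every row. A start peak is a wild-type peak within 1 kb of a RefSeq start, and it was lost where no Pax5(R31Q/-) peak shared a base with it. No protein sequence was used here. Some genes and a sequence are not reported here.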

Additional observations from a re-analysis of the deposited data

How the results depend on the processing

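No paired analysis was possible because the labels carry no replicate numbers and the numbers used here follow accession order. Each alternative changed 1 choice, except limma-voom, which replaced values, weights and scaling together. Against 342 genes lower and 218 higher, of which 253 and 171 lay within 3-fold, the fit without the Vav-Cre libraries called 536, 470, 444 and 413 in that order and kept all 560 calls. Without a filter on low TPM, 143 genes were higher, 164 lower within 3-fold and 110 higher within 3-fold, and limma-voom on recovered reads called 539 lower. Leaving out 1 library gave 60 to 429 lower and 31 to 186 higher genes, and 7 to 314 and 7 to 142 within 3-fold. The library left alone in an arm is then assumed to vary like the other groups, and the cause of the changed counts was not tested. Of the 179 called genes checked singly, 37 to 118 stayed called without a library, 146 with only the 2 compared genotypes in the fit and 121 without the filter. Called genes did not overlap between the genotypes, so that leaving out a library could not turn their sign. Among 41 uncalled genes, the log2 difference of Rag2 turned to -0.016 under median-ratio scaling and -0.017 under limma-voom, and without a library that of Cebpa ran from -0.227 to 0.487, of Fcgr2b from -0.287 to 0.080, of Foxo1 from -0.101 to 0.024, of Mpo from -0.025 to 0.278, of Syk from -0.249 to 0.140 and of Vpreb2 from -0.064 to 0.056. With starts taken at 0.2 kb in place of 1 kb, the share of start peaks without a Pax5(R31Q/-) peak was 5.59% for genes that fell within 3-fold, 5.19% for those that rose within it and 2.42% for uncalled genes. With 2.5 kb these shares were 15.1%, 4.21% and 3.29%. Of the 560 calls, 547 had at least 10 recovered reads in at least 1 compared library, and the part of depth in the calls was not tested.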
